A study of Mus musculus with 2 samples.

Results

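Open promoters poor in CpG are here the accessible sites at protein-coding genes whose promoters hold few CpG dinucleotides. A gene was counted when the 1 kb centred on every one of its annotated starts held fewer than 10 CpG and a peak of the shorter deposited list lay within 500 bp of a start in both libraries. The members were therefore chosen by CpG count and by the peak calls themselves. They came to 29 genes of 3574 CpG-poor genes and of 21938 protein-coding genes in all, with 28 promoter peaks of 69208 in replicate 1 and 30 of 69128 in replicate 2. Chromatin accessibility was measured by DNase-seq, which sequences the cuts that the nuclease DNase I makes in nuclei, in left cerebral cortex of 2 female B6CASTF1/J mice aged 36 days. These are F1 hybrids of the B6 and CAST strains, each gave 1 library, and no treatment is given in the labels. Both libraries form 1 group, which leaves nothing to test between conditions, and no p-value is given. Tissue was taken in bulk, so a site open in fewer cells and a site less open in each cell cannot be told apart. The peaks, the peak heights and the footprints were made by the authors library by library on mm10. The scale of the heights is not stated, so ranks within a list are used. How reads from the CAST genome aligned to mm10 was not tested.

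Mammalian genomes have lost most of their CpG through mutation of methylated cytosine, and those that remain are concentrated in CpG islands, which cover the starts of housekeeping genes and of many neuronal genes. Island promoters tend to be open in most tissues. Promoters without an island are often those of tissue-restricted genes, such as receptors, immune genes and secreted proteins, and they tend to open only where transcription factors or the insulator protein CTCF bind. CTCF is a zinc finger protein that holds chromatin loops and domain borders in place.

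The CTCF consensus, which the rule had not used, had a share in the members' peaks near that of peaks in general. With at most 1 mismatch, it was in 24.1% of members at the middle of the peak of replicate 1. Searched in the same way, it was in 19.5% of all peaks and 7.12% of other open promoters. It was in 26.3% of peaks over 1000 bp from every protein-coding start. In 7 of the 29 members the bases shared by the peaks of both libraries held the 12-letter CTCF consensus with at most 1 mismatch. In 7 of those 7 matches all 12 letters lay inside footprints of both libraries. That share was not counted for matches in other peaks, so it cannot be called particular to the members. A footprint is a short stretch that the authors called as protected from cutting within an accessible site. The 5 of these peaks that have at least 60 bases outside exons are shown on the gene's strand. Each is the part of the shared peak outside annotated exons, from the GRCm38.p6 sequence of mm10, and capitals mark bases in footprints called in both libraries. Gm17482 lies at chr6:115227621-115227780 on the plus strand, Npff at chr15:102525201-102525380 on the minus strand and C1rl at chr6:124492981-124493112 on the plus strand. Samd9l lies at chr6:3399573-3399660 and Tbc1d21 at chr9:58369791-58369909, both on the minus strand.
Gm17482: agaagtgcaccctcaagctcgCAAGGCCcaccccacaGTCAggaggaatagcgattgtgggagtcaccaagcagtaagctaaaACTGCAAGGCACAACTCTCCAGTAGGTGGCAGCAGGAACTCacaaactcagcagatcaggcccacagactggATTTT
Npff: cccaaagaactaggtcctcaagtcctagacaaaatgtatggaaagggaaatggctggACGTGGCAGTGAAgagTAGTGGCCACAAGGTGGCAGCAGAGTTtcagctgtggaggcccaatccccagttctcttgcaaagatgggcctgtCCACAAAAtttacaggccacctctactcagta
C1rl: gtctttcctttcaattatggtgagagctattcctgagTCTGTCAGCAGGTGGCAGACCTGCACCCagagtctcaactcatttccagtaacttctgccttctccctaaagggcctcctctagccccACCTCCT
Samd9l: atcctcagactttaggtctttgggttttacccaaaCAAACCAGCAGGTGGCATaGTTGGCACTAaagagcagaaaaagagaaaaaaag
Tbc1d21: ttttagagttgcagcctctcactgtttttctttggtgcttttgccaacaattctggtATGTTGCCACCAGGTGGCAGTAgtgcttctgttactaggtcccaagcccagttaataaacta
In each of the 5 a capital run holds the match, which reads CCAGTAGGTGGC in Gm17482, CCACAAGGTGGC in Npff, TCAGCAGGTGGC in C1rl, CCAGCAGGTGGC in Samd9l and CCACCAGGTGGC in Tbc1d21. The other matches were in Trim69 (CCACCAGGGGGC) and Gm9964 (CCAGCAGAGGTC), whose peaks lie in exons. The match was exact in Gm17482, Trim69, Samd9l and Tbc1d21. The search of the peaks and the allowance of 1 mismatch were chosen after these sequences had been seen. From 250 before to 50 after the start, the window used for other motifs, the exact consensus was in 1 of 29 members (Samd9l, 3.45%). In that window it was in 0% of CpG-poor promoters that were not open and 1.17% of other open promoters.

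The same search was run in the 200 bases at the middle of each peak of replicate 1. The consensus with at most 1 mismatch was in 24.1% of the members (7 of 29, 95% Wilson interval 12.2 to 42.1). It was in 7.12% of the 13119 other open promoters and in 19.5% of all peaks. It was in 26.3% of the 44087 peaks over 1000 bp from every protein-coding start. Exact matches were in 13.8% of the members (4 of 29, 95% Wilson interval 5.50 to 30.6), 1.46% of other open promoters, 6.75% of all peaks and 9.66% of the peaks far from starts. At both settings the members' interval includes the shares of all peaks and of peaks far from starts. The intervals give counting error only and are not a test against other open promoters. The search was chosen after the sequences had been seen, and Gm44596 and Tex52 share 1 peak. In the 3545 CpG-poor promoters that were not open, 0.903% held a match with at most 1 mismatch in the 200 bases from 150 before to 50 after the start. That window was placed by the start and not by a peak, so this share is not a like measure. Some matching members' peaks lie outside such a window, as at Tbc1d21, with middles 527 and 518.5 bp after the start. No test was made of these differences, and a letter match is a description, not a bound site. With 2 mismatches allowed, the shares of members and other open promoters were 31.0% and 30.9%.

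Among the 22 members without a CTCF match, 10 had no base in footprints of both libraries, a share that was not counted in other peaks. Akr1c18, Ccl2 and Vegfd are shown because footprints of both libraries fall in them just upstream of the start, and Gbp9 because its peak is a simple repeat. Akr1c18 lies at chr13:4150655-4150800 on the minus strand, Ccl2 at chr11:82035464-82035570 and Vegfd at chrX:164373260-164373370 on the plus strand, and Gbp9 at chr5:105110317-105110380 on the minus strand, again from GRCm38.p6 with capitals for footprints of both libraries.
Akr1c18: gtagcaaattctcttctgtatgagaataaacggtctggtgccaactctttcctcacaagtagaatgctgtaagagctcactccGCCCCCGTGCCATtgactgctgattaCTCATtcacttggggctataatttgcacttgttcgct
Ccl2: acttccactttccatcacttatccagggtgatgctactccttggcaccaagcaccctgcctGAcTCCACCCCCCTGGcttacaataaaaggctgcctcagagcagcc
Vegfd: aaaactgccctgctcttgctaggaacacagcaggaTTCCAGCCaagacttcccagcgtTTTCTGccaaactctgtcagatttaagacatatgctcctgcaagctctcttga
Gbp9: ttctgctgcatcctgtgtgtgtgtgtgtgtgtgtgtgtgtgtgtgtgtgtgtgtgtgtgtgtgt
Footprints of both libraries covered 18 bases of the shared peak at Akr1c18, 22 at Ccl2 and 14 at Vegfd. At Gbp9 they covered 0, and 100% of the peak of replicate 1 and 72.0% of the peak of replicate 2 was repeat sequence in the reference. That was the member with most repeat sequence, and 15 members in replicate 1 and 12 in replicate 2 had no repeat base in the peak.

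Openness rose with CpG count, and the members stand at the lower end of that relation. A promoter peak in both libraries was present at 59.9% of all protein-coding genes and at 0.811% of CpG-poor genes (95% Wilson interval 0.566 to 1.16, counting error only). With 0 to 4 CpG at the start richest in CpG, 1 of 1405 genes was open (0.0712%). With 5 to 9 CpG, 28 of 2169 were open (1.29%), and with 10 to 14 CpG, 76 of 1511 (5.03%). From there the share reached 32.0% at 20 to 29 CpG, 85.5% at 40 to 59 and 95% at 80 or more. The rise was gradual at the threshold itself, with 8 of 335 genes open at 9 CpG and 14 of 347 at 10 CpG. Just inside it, Neurod6, 4933407L21Rik and Crybb1 had heights of 1.94, 1.39 and 1.31 in replicate 1 and 1.5, 1.32 and 1.08 in replicate 2. Just outside it, Gng3, 9230104L09Rik and Lrrn3 had 2.57, 2.82 and 2.93 in replicate 1 and 2.47, 2.12 and 1.73 in replicate 2. These shares are a description, were not tested, and no cause is read from them. Both the CpG count and the peak call were taken over all starts of a gene, and genes were not matched for their number of starts.

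**Figure D1:**
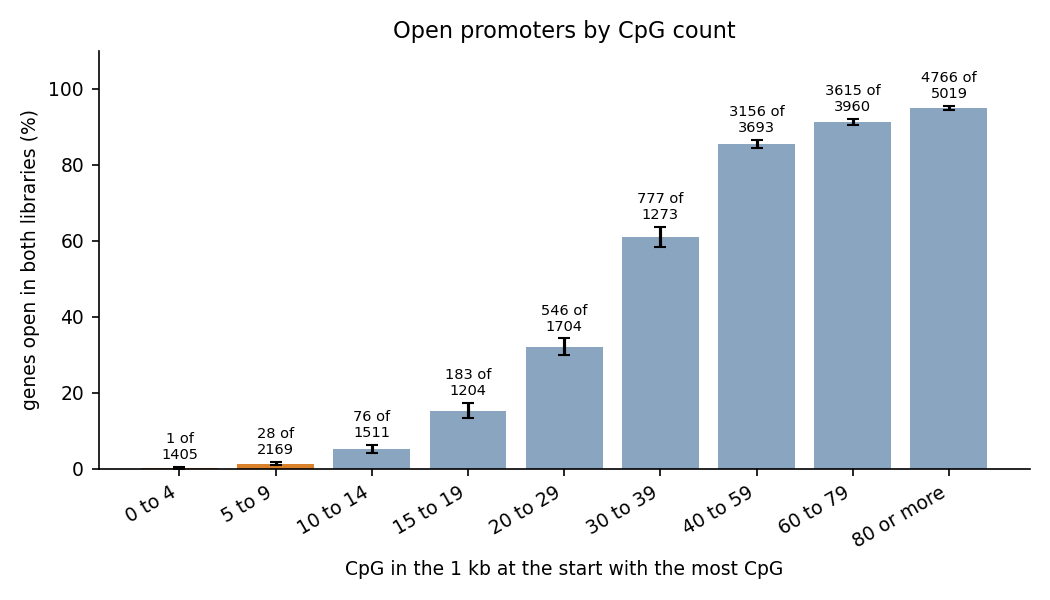
Bars give the percent of protein-coding genes with a promoter peak in both libraries, by the CpG count in the 1 kb at the start richest in CpG, with 95% Wilson intervals. The orange bins, 0 to 4 and 5 to 9 CpG, hold the 29 members, at 0.0712% and 1.29%, against 95% in the bin of 80 or more.

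CpG-poor calls depended on the library. In replicate 1, 32 CpG-poor genes had a peak and in replicate 2, 47 did, and 50 had one in either. Of the 3 called in replicate 1 alone (Tex38, Sucnr1 and Ces1c), 3 were in the longer list of replicate 2. Of the 18 called in replicate 2 alone, 11 were in the longer list of replicate 1. The highest of those 18 was Cd28, the T cell co-stimulatory receptor, at 0.847 and the 45.8th percentile of its list. The lowest was Igll1 at 0.129 and the 0.998th percentile.

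The members' peaks were low and narrow beside other open promoters. The median member stood at the 34.7th percentile of all peak heights in replicate 1 and at the 37.7th in replicate 2 (mean 36.2 ± 2.17, SD, n = 2 libraries). The median of the 13119 other open promoters stood at the 87.3rd and the 89.5th. Median widths were 160 and 180 bp in the members, and 240 and 260 bp in the others. Median GC content of the peak was 51.7% and 52.0%, against 66% and 65.4%, a contrast that follows from the CpG rule. In both libraries 11 members were above the 50th percentile and 7 were below the 25th. Heights under 1 were whole multiples (tolerance 0.05) of one small step in each library. The median member was worth 143 and 132 such steps and the lowest 56 and 70, which, if a step is 1 cut, gives counting errors of about 13.4% and 12% for the lowest.

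**Figure D2:**
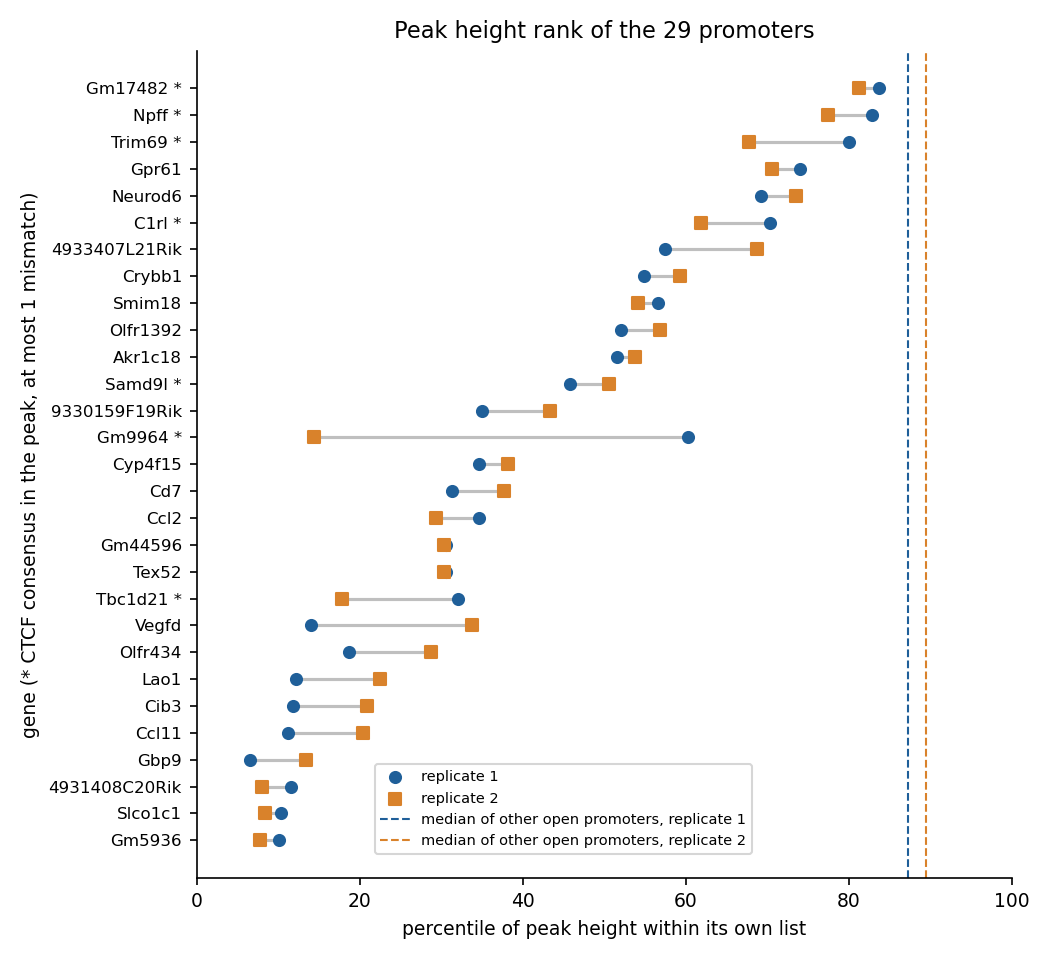
Each row is 1 member, with the percentile of its highest peak among all peaks of replicate 1 (circles) and replicate 2 (squares), and dashed lines give the medians of the 13119 other open promoters, 87.3 and 89.5. In order of mean rank the members run from the 83.7th and 81.3rd percentiles at Gm17482 to the 10.1th and 7.76th at Gm5936, all below the dashed lines, and Gm9964 has the widest gap, 60.2 against 14.5.

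Accessible bases were concentrated in a narrow zone at these starts. The deposited false discovery rates (FDR) list the bases whose cut rate passed 0.05. Within 500 bp of the start the median member had 304 such bases in replicate 1 and 360 in replicate 2, and the range was 85 to 597 and 71 to 821. The other open promoters had medians of 855 and 883. Of the CpG-poor promoters that were not open, 98.4% and 97.9% had none. That class includes the genes with a peak in a single library, 3 in replicate 1 and 18 in replicate 2. The start of an open gene was the one nearest its peak, while genes that were not open were taken at their most upstream start. The closeness of these bases to the members' starts is thus partly built in. In the 50 bp before the start, 82.8% of members in replicate 1 and 79.3% in replicate 2 held such a base. From 300 to 350 bp after the start, the share was 10.3% and 24.1%, against 86.9% and 88.0% at other open promoters. The peaks and these rates were made from the same libraries, so this is the same signal seen again.

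**Figure D3:**
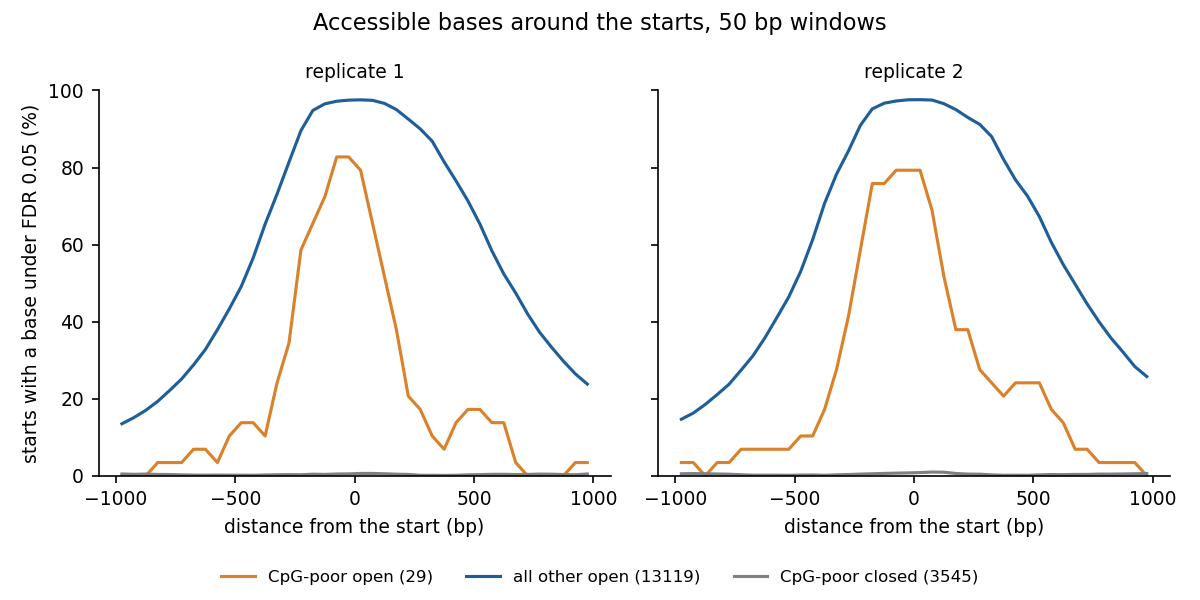
Lines give, in windows of 50 bp from -1000 to 1000 bp around the start used, the percent of starts with a base under FDR 0.05, for the 29 members, the 13119 other open promoters and the 3545 CpG-poor promoters that were not open. The members reach 82.8% and 79.3% just upstream of the start and fall faster on both sides than other open promoters, which reach 97.5% and 97.6%. Starts of both open classes were chosen by their peak, and those of promoters that were not open were not.

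Not every member had its peak on the start. An annotated start lay inside the highest peak of both libraries in 13 of 29 members, among them Neurod6, Gpr61, C1rl, Trim69, Ccl2, Samd9l and Smim18. In single libraries a start lay inside the peak in 48.3% and 62.1% of members, against 79.3% and 80.5% of other open promoters. The farthest were Gm9964 and Tbc1d21, with gaps of 386 and 460 bp in replicate 1 and 465 and 459 bp in replicate 2, followed by Gm17482 (278 bp in both), Npff (259 bp) and Olfr1392 (257 bp). Of these 5 peaks, 4 held a CTCF match, all but that of Olfr1392. Such a match was in 26.3% of all peaks of replicate 1 over 1000 bp from every protein-coding start. These 5 are the extreme of the 29, and the difference was not tested. The 1 kb around the peak itself held fewer than 10 CpG in both libraries in 25 members. The exceptions were Tbc1d21 (13 and 13 CpG), Cd7 (10 and 9) and the peak that Gm44596 and Tex52 share (9 and 10). The peaks of both libraries overlapped in 29 of 29 members.

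**Figure D4:**
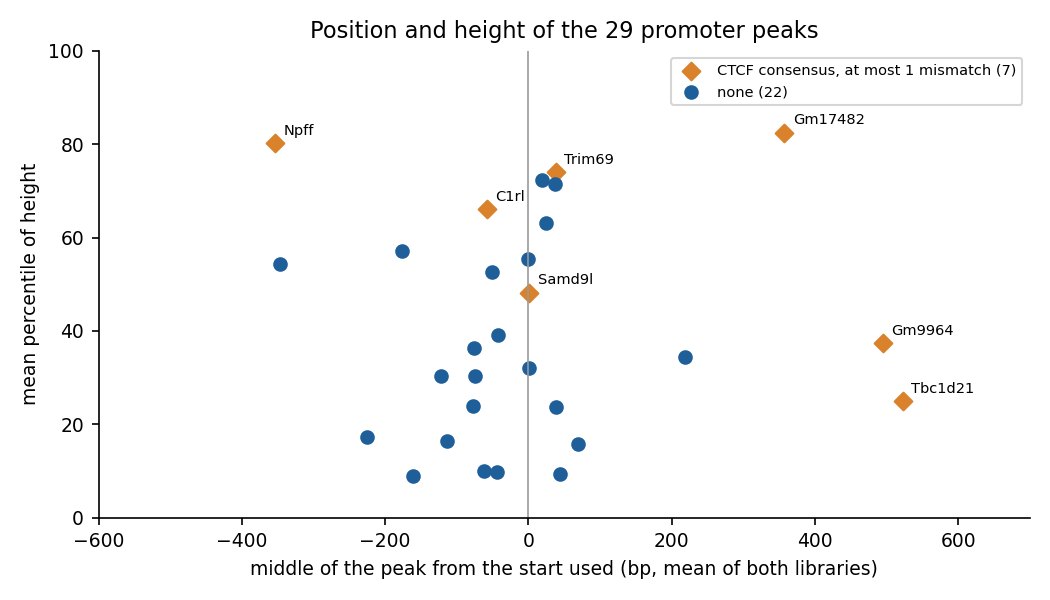
Each point is 1 member, with the middle of its peak relative to the start used (bp, mean of both libraries, negative is upstream) and its mean height percentile. Diamonds mark the 7 peaks with a CTCF match, which include Gm17482, Npff and Trim69 at the top and Gm9964 and Tbc1d21, the peaks farthest from their starts.

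Npff, Gpr61 and Neurod6 are described together for their known roles in neurons, a grouping made after their values were seen. Npff, which encodes the precursor of neuropeptide FF, a peptide that modulates pain and opioid action, had peak heights of 3.33 in replicate 1 and 1.69 in replicate 2. That placed it at the 82.9th and 77.5th percentiles, with 6 and 5 footprints, in a peak whose middle lay at -348.5 and -358.5 bp from the start. The Npff peak lay in the body of Gm28047, and its middle was 3734 bp from the open start of Atf7. Gpr61, an orphan G protein-coupled receptor of the nervous system, had 2.29 and 1.39 over its start, at the 74.0th and 70.6th percentiles. It had 11 further shared regions from 1 to 50 kb away, the most of any member. Neurod6, a basic helix-loop-helix factor of cortical excitatory neurons, had 1.94 and 1.5 over its only start, with 1 footprint in replicate 1 and 5 in replicate 2. Both libraries ranked these 3 in the upper part of their lists, between the 69.2nd and the 82.9th percentile. Smim18, a small membrane protein whose peak lies in the body of Gtf2e2, had 1.36 and 0.982.

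Marker lists of cell types and organs held 378 genes, of which 38 were CpG-poor. Of these 38, 3 were open, beside the 0.811% of all CpG-poor genes, and the difference was not tested. They were Neurod6 of the excitatory neuron list, Slco1c1 of the vascular and meningeal list and Crybb1 of the eye list. Of the other 340 listed genes, 135 were open. As a check of the tissue label over all listed genes of any CpG count, 18 of 19 excitatory neuron markers, 14 of 20 astrocyte markers, 8 of 30 vascular and meningeal markers, 2 of 28 microglial markers and 0 of 18 liver markers were open. CpG-poor markers that were not open include Themis of the same neuron list, Nts of the neuropeptide list and Cd53, Gpr34 and Siglech of microglia. Others include Hbb-bs, Alas2 and Klf1 of the blood list and Col3a1, Lum, Ly6c1 and Slco1a4 of the vascular and meningeal list. That none of the 3 CpG-poor microglial genes and none of the 8 blood genes was open is near the background of 0.811% and says nothing about these cells.

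C1rl, Samd9l, Gbp9, Ccl2, Ccl11 and Cd7 are described together for their known roles in immunity, again grouped after their values were seen. C1rl, a protease related to complement C1r, had heights of 2.02 and 1.14 over its start. Samd9l, an interferon-induced antiviral factor, had 1.08 and 0.920, and Gbp9, an interferon-induced guanylate-binding protein, had 0.340 and 0.471. C1rl was thus in the upper part of each list, Samd9l near the middle and Gbp9 near the bottom. The chemokine Ccl2, which recruits monocytes, had 0.869 and 0.645, and the chemokine Ccl11, which recruits eosinophils, had 0.480 and 0.550. Ccl2 had 3 and 4 footprints, and Ccl11 had 0 in replicate 1 and 1 in replicate 2. Of 9 CpG-poor chemokine genes these 2 were open, beside 0.811% of all CpG-poor genes, a difference that was not tested, and Ccl7 and Ccl9 had a peak in replicate 2 alone. Cd7, a surface antigen of T cells and natural killer cells, had 0.815 and 0.740, and it was 1 open gene of 21 CpG-poor genes named as CD antigens. Of the listed markers with more CpG, 2 of 16 blood genes and 2 of 25 microglial genes were open, and the part of immune cells in these peaks was not tested.

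Akr1c18, Cyp4f15 and Lao1 encode enzymes, and Vegfd and Slco1c1 act in or on vessels. Akr1c18, a 20-alpha-hydroxysteroid dehydrogenase that inactivates progesterone, had 1.22 and 0.976, and Cyp4f15, a cytochrome P450 of fatty acid hydroxylation, had 0.869 and 0.746. These were the only 2 members with the GC box GGGCGG in the 300 bases from 250 before to 50 after the start, 6.90% of members against 2.00% of CpG-poor promoters that were not open and 67.7% of other open promoters. Lao1, an L-amino acid oxidase, had 0.499 and 0.572. Vegfd, a growth factor of lymphatic vessels, had 0.535 and 0.696, the 14.1th and 33.8th percentiles. Slco1c1, a thyroxine transporter of brain endothelium, had 0.462 and 0.404 and no footprint in either library. Slco1c1 thus ranked among the 3 lowest members by mean percentile, with 4931408C20Rik and Gm5936. It was 1 open gene of 5 CpG-poor genes of the vascular and meningeal list, beside 0.811% of all CpG-poor genes, and the difference was not tested. Col3a1, Lum, Ly6c1 and Slco1a4 of that list were not open, and Vegfd is not in the list.

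Crybb1, a crystallin of the eye lens, had heights of 1.31 and 1.08 in a peak 115 and 84 bp upstream of its start. It alone of the 29 (3.45%, 95% Wilson interval 0.611 to 17.2) had TATAAA between 40 and 20 bases upstream of the start, at 25 bases. That motif was there in 6.12% of CpG-poor promoters that were not open, in 0.686% of other open promoters and in 2.22% of all protein-coding genes. The members' 1 case is near the background, and only the gene strand was searched. With the most upstream start of each member the share was again 3.45%. The olfactory receptor genes Olfr1392 (1.23 and 1.03) and Olfr434 (0.614 and 0.640) were 2 open of 971 CpG-poor genes of that family, again beside 0.811% of all CpG-poor genes. The family is expressed mainly in the nose, and of its 1135 genes 7 were open. Tex52, known from testis, shares 1 peak with the gene model Gm44596 (0.803 and 0.656), in the body of Foxm1. Tbc1d21, also known from testis, had 0.827 and 0.522 at its CTCF match, and Cib3, a calcium-binding protein, had 0.493 and 0.555. Of 324 CpG-poor vomeronasal receptor genes, 31 taste receptor genes and 27 beta-defensin genes, none was open, which is near the background of 0.811%.

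The remaining members include gene models and less known genes, among them the highest peak of all. Gm17482, a gene model whose peak lies in the body of the synapsin gene Syn2, had 3.45 and 1.94, the highest values of the 29 in both libraries, with 4 footprints in each. Trim69, a ubiquitin ligase of the TRIM family, had 2.94 and 1.30 in an exon that lies in the body of Patl2. Of the 6 highest members, 4 held a CTCF match (Gm17482, Npff, Trim69 and C1rl). High peaks hold such matches often, as 44.6% of the 17776 peaks of replicate 1 that lay over 1000 bp from every protein-coding start and above the 50th percentile did. The clone 4933407L21Rik had 1.39 and 1.32, 9330159F19Rik had 0.876 and 0.813, and Gm9964 had 1.49 and 0.482. The lowest mean ranks, beside that of Slco1c1, were those of 4931408C20Rik (0.486 and 0.398), which has 0 CpG in its window, and Gm5936 (0.456 and 0.393). In all, 9 members' peaks lay in the body of another protein-coding gene, and 24 members lay over 10 kb from every open start of another one. The signal at the former cannot be told apart from a regulatory site of the gene around it. Neither share was counted for other promoters, so neither can be called high or low.

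Footprint calls were about as frequent in the members' peaks as elsewhere. In replicate 1, 89.3% of the 28 peaks held a footprint, and in replicate 2, 86.7% of the 30 did (mean 88.0% ± 1.85, SD, n = 2 libraries). All peaks stood at 86.6% and 87%, and peaks of other open promoters at 86.5% and 87.3%. Since footprints are called more often in high peaks, shares are also given by rank. At or below the 25th percentile, 6 of 9 member peaks in replicate 1 and 8 of 10 in replicate 2 held one (66.7% and 80%), against 47.2% and 48.3% of peaks at other open promoters. From the 25th to the 50th percentile the shares were 100% and 87.5% in 7 and 8 peaks, against 65.3% and 67.9%. The members' shares rest on at most 10 peaks each and were not tested. The other open promoters enter with every peak near a start, 21425 in replicate 1 for 13119 genes, against 28 for the 29 members. Of those, 1942 were at or below the 25th percentile, where 312 of the genes stood by the mean rank of their highest peaks. Many low peaks of the other promoters are thus not the highest of their gene, and the shares by rank compare unlike peaks. A footprint was called in both libraries in 25 members.

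Other short motifs were counted in the 300 bases from 250 before to 50 after the start, on both strands. Starts of open promoters were chosen by their peak, and those of promoters that were not open were not. The CCAAT box was in 34.5% of members, 42.5% of CpG-poor promoters that were not open and 38.5% of other open promoters. The E-box form CAGCTG, which reads the same on both strands, was in 8 members (27.6%), among them Gpr61 and Smim18. It was in 12.3% of the CpG-poor promoters that were not open and in 14.9% of the other open ones. The SOX motif ACAAAG was in 27.6%, 25.7% and 11.9%, and the GATA motif AGATAA in 3.45%, 20.2% and 4.78%. Each of these member shares is a count of at most 10 genes, and none was tested.

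Heights of the members were compared between the animals. The log2 ratio of replicate 2 to replicate 1, centred on the median of 45952 regions with 1 peak per library, had an SD of 0.46 over the 29 members and 0.33 over the other open promoters. Over all 45952 regions it was 0.48, so the members' spread was close to that of peaks in general. Spearman's rho of the heights was 0.872 over the 29 and 0.939 over the 13119, as a description across genes. The median centred ratio of the members was 0.15 (95% order-statistic interval -0.0044 to 0.29), and 20 of 29 were above 0. That interval describes the spread over genes of 1 pair of libraries, not the spread between animals. Gm44596 and Tex52 share 1 peak and both enter with the same value, 0.14. The lowest were Gm9964 (-1.20), Trim69 (-0.76) and Npff (-0.55), each with a CTCF match, and the highest were Gbp9 (0.89) and Vegfd (0.80). The other members with a match were Gm17482 (-0.41), C1rl (-0.40), Tbc1d21 (-0.24) and Samd9l (0.19). Of the 6 highest members 4 hold a match, and the members' ratio was lower at higher ranks, as given next. Rank and match can therefore not be told apart here. Among the 10 members at or below the 25th percentile the median was 0.54, against 0.040 in 312 other open promoters of that rank. From the 25th to the 50th percentile it was 0.16 in 8 members and -0.0037 in 829 others, and from the 50th to the 75th it was 0.053 in 9 members and -0.018 in 2119 others. Above the 75th it was -0.48 in 2 members and -0.055 in 9859 others. With 1 library per animal, the spread between mice and that between libraries cannot be told apart.

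The neighbourhood of the members was set beside that of the closed CpG-poor promoters and that of other open ones. Regions open in both libraries from 1 to 50 kb from the start numbered a median of 2 at the members (0 to 11), 0 at CpG-poor promoters that were not open and 3 at other open promoters. Among the latter, the 4287 with starts on both sides of 10 CpG also had a median of 2. The 8832 with at least 10 CpG at every start had 4. The members' median is thus not particular to them. Crybb1 had 8, Npff 6, and Olfr434, 4931408C20Rik and Gm5936 had 0. Median gene length was 10610 bp in the members, 6421 bp in the closed CpG-poor genes and 26702 bp in the other open genes. The number of annotated starts per gene had medians of 2, 2 and 5.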

How the data were processed

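DNase-seq libraries of left cerebral cortex from 2 mice were used, 1 library per animal and 1 group. Per the deposited read-me text, peaks, footprints and false discovery rates were made by the authors per library from alignments to mm10. No aligner or peak caller is named (not given in the sources used here). Peak heights, as deposited, are signal values of unstated scale. The score deposited with each footprint never varies, so positions alone were used. The deposited FDR values (q-values of the cut rate) list bases under 0.05. Depth in reads is unknown. Wilson intervals cover counting error only, and the order-statistic interval covers the spread over genes only.

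CpG was counted in GRCm38.p6 at every GENCODE M21 transcript start of chromosomes 1 to 19, X and Y. Coordinates are 1-based. For each gene the highest peak within 500 bp of a start was used. Heights were ranked within a list, or set against each other as centred log2 ratios. The start used is the one nearest the peak in open genes and the most upstream one in genes that were not open. Contrasts with the latter in accessible bases, motifs and neighbourhood therefore set starts chosen by a peak beside starts not so chosen. Rules were tested on simulated data (Python 3.11.15, NumPy 2.4.6, SciPy 1.17.1). The alternatives were other CpG limits, distances, lists, overlaps and transcripts, and single libraries.

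The members, gene lists and motifs were chosen with earlier results of these data known. Genes named are the 20 highest members, the members of each marker list, those with TATAAA, few CpG, many footprints, wide peaks or outlying ratios, the lowest and those at the CpG threshold. Others, such as family members and genes called in 1 library, were named after their values were seen, and so were the sequences shown, which follow the peak where the rule had named bases upstream of the start.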

Additional observations from a re-analysis of the deposited data

How the results depend on the processing

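No paired analysis was possible because both libraries belong to 1 group. Counts and shares depended on the definition of a CpG-poor open promoter. The number of genes, 29 as reported, was 1 with fewer than 5 CpG, 105 with fewer than 15 CpG, 345 with the 5-prime-most start alone, 45 with peaks within 1000 bp, 11 with peaks above the median height, 57 with the longer lists, 45 with basic transcripts and 32 to 47 with 1 library left out. The open share was, in that order, 0.0712%, 2.06%, 7.74%, 1.26%, 0.308%, 1.59% and 1.17%, and 0.895% to 1.32% with 1 library left out. It stayed within its interval, with 22 genes each, with peaks within 100 bp or with peaks that overlap by at least 50% of each, and was 29 genes with any overlap. The median percentile, 36.4 over member means, was 9.82 with fewer than 5 CpG, 46.5 with fewer than 15, 33.3 within 100 bp, 66.1 above the median height and 21 to 33.4 with 1 library left out. The footprint share was 75%, 90.9%, 90.5% and 95.5% in the same order and 74% to 90.3% with 1 library left out. The TATA share was 0% with fewer than 5 CpG and within 100 bp, 1.90% with fewer than 15 CpG, 6.90% with TATATA or TTTAAA also counted from 45 to 15 bases, 9.09% above the median height and 3.13% to 4.26% with 1 library left out. The centred ratio was -0.046 above the median height, and needs both libraries. In the longer lists 1 CpG-poor oligodendrocyte gene was open, against 0. These are changes of definition, and the cause was not tested. Unknown depth limits how far low peaks called in 1 library can be read as different.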
